A study of Mus musculus with 40 samples.

Results

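Noradrenaline released by sympathetic nerves acts on brown adipocytes through adrenergic receptors, and the messenger cAMP carries much of the signal inside the cell. Expression of 8 genes of this route was described in mouse brown adipose tissue: the receptor genes Adrb1, Adrb3, Adra1a and Adra2a, the adenylyl cyclase gene Adcy3, the phosphodiesterase genes Pde3b and Pde4d, and the protein kinase A subunit gene Prkar2b. They are the 8 rows, of 52636 in the deposited count table, whose Ensembl identifiers map to these symbols. Adra2a was close to absent and did not pass the filter on low counts, so 7 of the 8 genes were tested. In the tests, Adrb3 fell with thyroid hormone and was lowest where hormone followed Jag1 and Jag2 antibodies. Adra1a was called higher in 2 of the 6 comparisons of groups, the antibodies at 5 d and hormone in control mice. There 2.09% and 20.3% of all genes were called higher, and each Adra1a call was lost in some other ways of fitting the data.

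Beta-adrenergic receptors couple to the stimulatory G protein, which turns on adenylyl cyclase. The cAMP that is made frees the catalytic subunits of protein kinase A (PKA) from their regulatory subunits, and PKA drives lipolysis, the burning of fatty acids through the uncoupling protein Ucp1, and transcription through CREB. Alpha2 receptors couple to inhibitory G proteins and oppose the cyclase, alpha1 receptors raise calcium through a different G protein, and phosphodiesterases break cAMP down. Thyroid hormone and sympathetic tone are both known regulators of brown fat thermogenesis.

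The tissue came from 40 male C57BL/6 mice, 5 in each of 8 groups, and total RNA was sequenced. The control antibody was an anti-ragweed isotype at 40 mg/kg. The remaining mice, called Jag antibody mice, were given anti-Jag1 and anti-Jag2, 20 mg/kg of each, which block these ligands of the Notch receptors. Each mouse had a single intraperitoneal dose, and tissue was taken at 15 h, 5 d or 7 d, with separate mice at every time. In a further control group and a further Jag antibody group, T4 (1 ug per g of body weight) and T3 (0.05 ug per g), the thyroid hormones, were injected daily from day 2 and tissue was taken at 7 d. All mice were wild type as far as the labels say, and their age is given as 10 to 12 weeks in one place and 10 to 14 weeks in another. The antibodies were given systemically, so the brown fat is the tissue read and not the sole tissue exposed. Mice numbered 1 to 5 had the control antibody and mice 6 to 10 the Jag antibodies in each pair of groups.

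On GRCm38, by GENCODE M21, Adrb1 (ENSMUSG00000035283) lies at chr19:56722199-56733113 and Adra2a (ENSMUSG00000033717), a gene of 1 exon, at chr19:54044151-54048982, both on the plus strand. Adrb3 (ENSMUSG00000031489) lies at chr8:27225776-27250616 on the minus strand, and 839 of its exonic bases are shared with Gm45470, an antisense transcript on the other strand. Adra1a (ENSMUSG00000045875) lies at chr14:66635251-66771168, Pde3b (ENSMUSG00000030671) at chr7:114415281-114539251 and Pde4d (ENSMUSG00000021699) at chr13:108449948-109953461, all on the plus strand. Adcy3 (ENSMUSG00000020654) lies at chr12:4133103-4213525 on the plus strand and shares 1380 exonic bases with Cenpo on the other strand. Prkar2b (ENSMUSG00000002997) lies at chr12:31958476-32061296 on the minus strand. Whether counting used strand is not given in the sources used here, so reads of Adrb3 and Gm45470, and of Adcy3 and Cenpo, cannot be told apart where they overlap.

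RefSeq promoter windows (GRCm38.p6, 250 bases before to 50 after a start) were given for 5 of the 8 genes: Adrb1, Adra2a, Adcy3, Pde4d and Prkar2b, in 7 windows. The windows were searched on both strands for the cAMP response element TGACGTCA, its core TGACG, the nuclear receptor core AGGTCA and the letters GTGGGAA of RBPJ, the DNA-binding partner of Notch. TGACG is contained in TGACGTCA. The full element was in none of the 7 windows and in 1.79% of all 32851 windows. The core TGACG was in the windows of Adrb1 and Adra2a, and in 20.8% of all windows. GTGGGAA was in the Adra2a window, on the minus strand, and in 6.38% of all windows, while AGGTCA was in none of the 7 and in 16.3% of all. The Adra2a window, chr19:54045009-54045308, lies inside the exon that GENCODE gives this gene, with matches beginning at positions 167 and 182. The 250 bases before the Adrb1 start, chr19:56721867-56722116 on the plus strand, are printed 5′ to 3′ because they hold the match of the beta1 receptor. Capitals mark TGACG, which begins at position 161.
Adrb1: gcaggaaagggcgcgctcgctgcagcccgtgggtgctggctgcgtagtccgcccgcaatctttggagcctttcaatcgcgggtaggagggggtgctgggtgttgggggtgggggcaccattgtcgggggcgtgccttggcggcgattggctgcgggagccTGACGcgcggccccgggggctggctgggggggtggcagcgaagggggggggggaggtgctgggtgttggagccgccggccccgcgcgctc

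The 40 libraries held 12217623 to 36511893 counts, median 18949808. The tissue carried its markers: the lowest summed level of 8 brown adipocyte genes in any mouse was 1956.07 CPM (counts scaled to library size), in a 15 h control mouse. Skeletal muscle genes were uneven, with a summed level of 8 markers of 1018.41 to 175926 CPM in control mice at 5 d and 0.877698 to 43.8736 CPM in Jag antibody mice at 5 d, ranges that do not overlap. The adipocyte score, the mean log2 CPM of 7 adipocyte genes, was 9.72 to 11.04 in control mice and 11.10 to 11.26 in Jag antibody mice at 15 h, again with no overlap. At 7 d it was 10.79 to 11.18 in control mice without hormone and 9.98 to 10.24 with hormone, and 10.78 to 11.36 and 10.35 to 10.70 in the Jag antibody mice. Where a score does not overlap between 2 groups, a fit with that score as a covariate cannot separate it from the treatment. Some mice stood apart across the genes described here. Control mouse 2 at 15 h, with the lowest adipocyte score of its group (9.72) and a macrophage score of 8.06, was the lowest of its group for all 7 tested genes. Control mouse 5 at 5 d, with the highest muscle score (13.71), and Jag antibody mouse 6 at 7 d, with a muscle score of 12.33 and the lowest adipocyte score of its group (10.78), were the lowest for 6 of 7. Control mouse 3 at 15 h had the next lowest adipocyte score of its group (10.26). Its macrophage score was 7.30, against 4.51 to 5.62 in control mice 1, 4 and 5. This mouse was also next lowest for Adrb3, Adcy3, Pde3b and Pde4d. Of 8 macrophage and monocyte markers 2 were called lower in Jag antibody mice at 15 h, where 1.14% of all genes were called. Their part in the 15 h differences was not tested. Leaving out control mouse 2 at 15 h, control mouse 5 at 5 d or Jag antibody mouse 6 at 7 d moved antibody differences of several genes. Without control mouse 2, the 15 h differences were 0.19 for Prkar2b (0.39 with it), 0.47 for Pde3b (0.66), 0.52 for Pde4d (0.67) and 0.86 for Adcy3 (1.02). Without control mouse 5, the 5 d differences were 0.29 for Prkar2b (0.49), 0.28 for Pde3b (0.50), 0.33 for Pde4d (0.52), 0.33 for Adcy3 (0.57) and -1.29 for Adrb1 (-1.05). Without Jag antibody mouse 6, the 7 d differences were -0.75 for Adrb1 (-1.0), -0.11 for Adrb3 (-0.26) and 0.68 for Adra1a (0.52). None of these values was called by edgeR. In bulk tissue, fewer cells of a type and less RNA per cell cannot be told apart.

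Levels of different genes were compared as CPM per kb of exonic length, with the median over 40 mice. Prkar2b, which encodes the RIIbeta regulatory subunit of PKA that predominates in fat, stood highest at 311. Adrb3, the receptor through which brown and white adipocytes of rodents take most of their beta-adrenergic signal, was next at 62.8. Pde3b, the phosphodiesterase by which insulin lowers cAMP in adipocytes, stood at 30.2. The alpha1A receptor gene Adra1a at 12.9 and the cyclase gene Adcy3 at 12.0 were close to each other. Pde4d, a cAMP-specific phosphodiesterase, stood at 7.49 and Adrb1, the beta1 receptor, at 3.55. Adra2a, the inhibitory alpha2A receptor, was at 0.0230. These are levels per length over exons. Pde4d spans 1503514 bases against 12006 exonic bases, and whether intronic reads were counted is not given in the sources used here, so its level per length is uncertain.

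**Figure D1:**
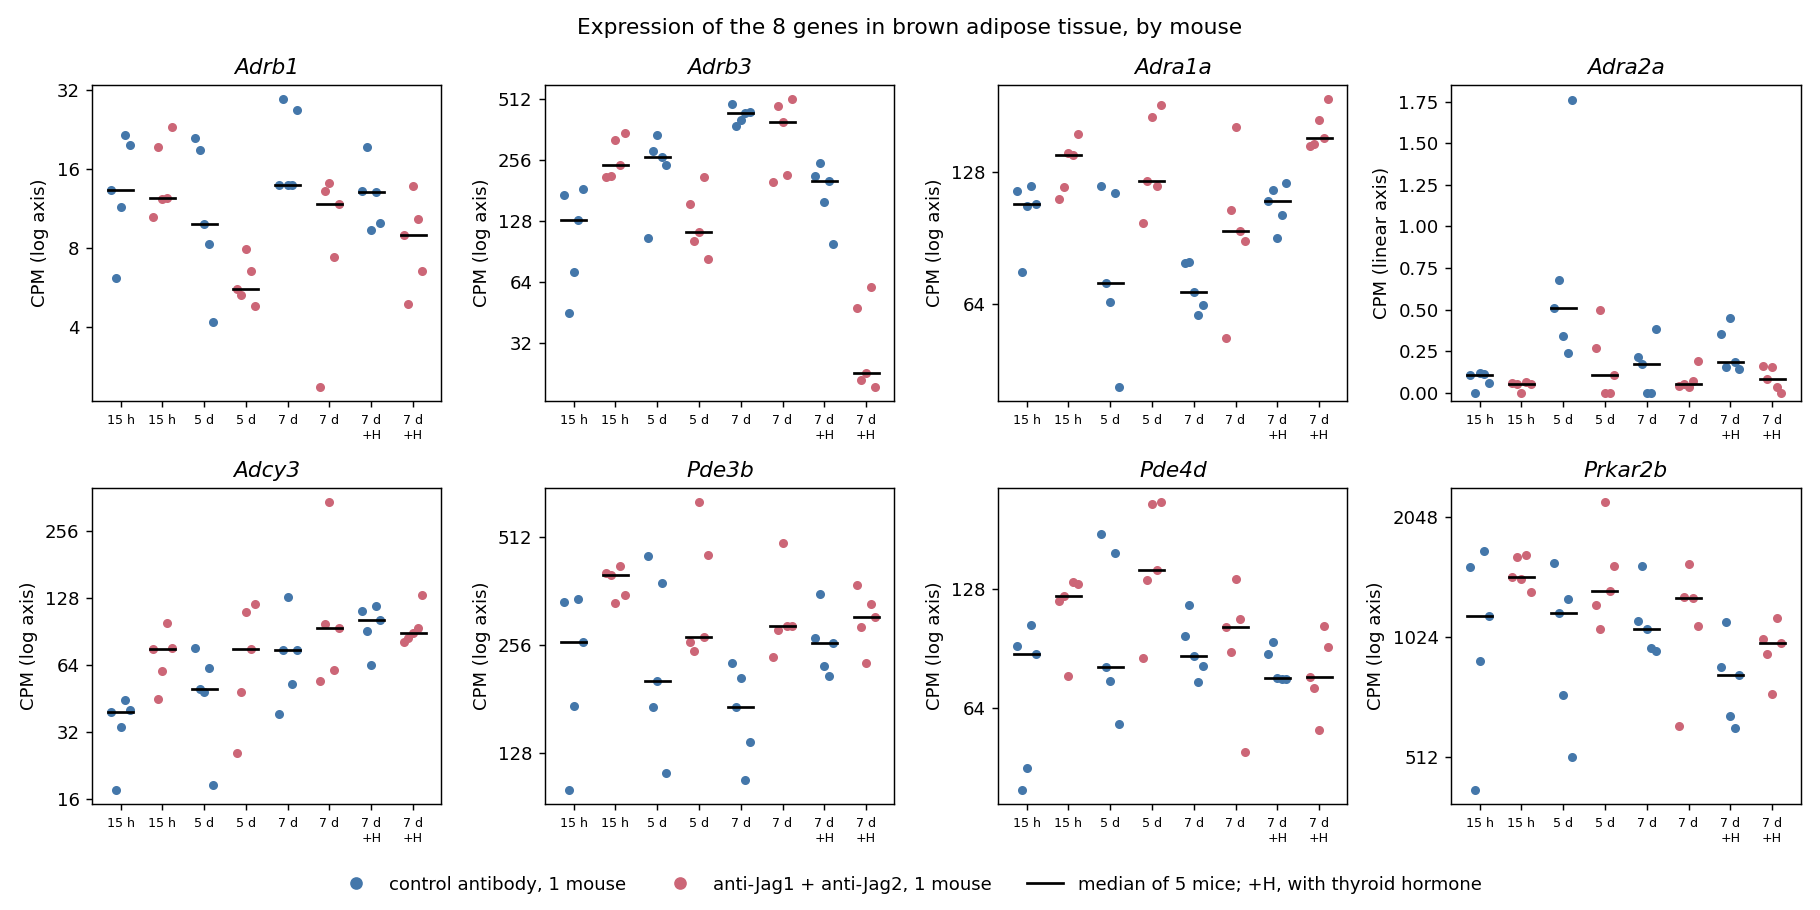
Level of each of the 8 genes in CPM (vertical axis, logarithmic except for Adra2a, where it is linear) in every mouse, by group along the horizontal axis; points are mice and bars are medians of 5. The Adrb3 points of Jag antibody mice given hormone, 19.3 to 60.3 CPM, lie below those of the other groups apart from the lowest control mouse at 15 h, and the Adra2a points reach at most 1.76 CPM.

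Adrb3 had the widest range of log2 differences of the 7 tested genes over the 6 comparisons, from -3.40 to 1.15. At 7 d without hormone it stood at 485, 378, 405, 438 and 444 CPM in control mice 1 to 5. With hormone the control mice had 213, 247, 159, 203 and 98.6 CPM. All 5 hormone-treated control mice were below all 5 untreated ones, and 29.8% of all genes did not overlap between these groups. The fall was 2.34-fold, a log2 fold change of -1.22 (SE 0.36, edgeR quasi-likelihood test, adjusted p = 0.00614). Hormone changed many genes in control mice, with 43.2% of the 17079 tested genes called at an adjusted p under 0.05 and 22.9% called lower, so a call there is common. With the adipocyte score as a covariate the difference was -0.44 and was no longer called (edgeR, adjusted p = 0.564). That score did not overlap between the groups, so the fit cannot separate it from hormone. The covariate lowered the calls over all genes from 7378 to 1547.

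Adrb3 fell with the same hormone course in Jag antibody mice. Without hormone they had 199, 475, 395, 216 and 512 CPM at 7 d, in mice 6 to 10. With hormone they had 47.5, 20.9, 22.5, 60.3 and 19.3 CPM. All 5 hormone-treated mice were below all 5 untreated ones, where 12% of all genes did not overlap. The fall was 10.5-fold, a log2 fold change of -3.40 (SE 0.39, edgeR adjusted p = 1.49e-06), in a comparison where 9.5% of genes were called and 5.21% called lower. It was also called with the adipocyte score as a covariate, at -2.85 (edgeR adjusted p = 6.97e-05), and without any 1 mouse, at -3.70 to -3.23. The score did not overlap between these groups, so the fit with it cannot separate it from hormone.

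Among hormone-treated mice, Adrb3 was lower in Jag antibody mice than in control mice, with no overlap between the 5 and 5 mice. Between these groups 6.59% of all genes did not overlap. The difference was 5.39-fold, a log2 fold change of -2.43 (SE 0.37, edgeR adjusted p = 0.000205). In that comparison 1.14% of genes were called and 0.439% called lower. The adipocyte score was 10.35 to 10.70 in Jag antibody mice and 9.98 to 10.24 in control mice. With the score as a covariate the difference was -2.77 (edgeR adjusted p = 0.000108). The score did not overlap between these groups, so that fit cannot separate it from the antibodies. None of the 7 adipocyte genes was called between these groups. Of 6 pericyte and smooth muscle markers 1 was called lower, and their summed level was 190.323 to 311.243 CPM in Jag antibody mice against 497.827 to 781.204 CPM in control mice, both with hormone. Of 6 fibroblast and progenitor markers 2 were called lower, with summed levels of 508.955 to 1047.34 CPM against 1070.15 to 2318.55 CPM. The part of either in the result was not tested. Without hormone at 7 d the antibody difference in Adrb3 was -0.26 (SE 0.35, edgeR adjusted p = 0.699, with a 95% interval, taken from the SE, of -0.95 to 0.43). The difference between those antibody differences, which is also that between the hormone differences of Jag antibody and control mice, was -2.17 (SE 0.50). It was not called by edgeR (adjusted p = 0.325), which called 1 gene (0.00586%) for that term, and was called by DESeq2 at -2.16 (adjusted p = 0.0289).

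Earlier after the dose, the antibody difference in Adrb3 had opposite signs at 15 h and 5 d, and was called at neither time. At 15 h control mice had 173, 45.1, 71.5, 130 and 184 CPM and Jag antibody mice had 212, 214, 320, 241 and 350 CPM. The groups did not overlap, which held for 2.48% of all genes, and the log2 difference was 1.15 (SE 0.36, edgeR adjusted p = 0.0951). DESeq2 called it (1.15, adjusted p = 0.0379). Without control mouse 1 it was called by edgeR (1.33, adjusted p = 0.0428), and without control mouse 2 it was 0.95 (edgeR adjusted p = 0.595). With the adipocyte score as a covariate it was 0.69 (edgeR adjusted p = 0.731), in a fit that called 0 of all genes. At 5 d control mice had 106, 286, 342, 265 and 241 CPM, and Jag antibody mice 154, 102, 112, 211 and 83.2 CPM. Control mouse 1 lay among the Jag antibody mice, and the other 4 control mice were above them all. The log2 difference was -0.90 (SE 0.36, edgeR adjusted p = 0.111), and -1.09 without control mouse 1, where it was called (adjusted p = 0.0321). With the adipocyte score as a covariate it was -1.33 and called (edgeR adjusted p = 0.0487), and with length and GC trends removed -0.58 (adjusted p = 0.300). The antibody difference at 5 d minus that at 15 h was -2.05 (SE 0.50, edgeR adjusted p = 0.0666) and was called by DESeq2 (-2.12, adjusted p = 0.00408).

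By group mean the order of Adrb3 ran from control at 7 d (8.74 ± 0.14 log2 CPM, SD, n = 5) through Jag at 7 d (8.38 ± 0.64), Jag at 15 h (8.03 ± 0.33), control at 5 d (7.85 ± 0.66), control with hormone (7.46 ± 0.52), Jag at 5 d (6.97 ± 0.53) and control at 15 h (6.73 ± 0.87) to Jag with hormone (4.93 ± 0.76). Every pair of neighbours overlapped, and only the last step, 1.79 log2 units, was larger than the SDs of the groups it joins. The control groups without hormone themselves ranged over the 3 times from 6.73 to 8.74. The overlapping antisense transcript Gm45470 held 12.1% as many counts as Adrb3. It fell with hormone too, by 0.78 on the log2 scale in control mice (edgeR adjusted p = 0.0423) and by 1.73 in Jag antibody mice (edgeR adjusted p = 0.000606).

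Adrb1 was the lower of the beta receptor members throughout and was called in no comparison. Control mice had 13.3, 6.16, 11.5, 21.5 and 19.7 CPM at 15 h and Jag antibody mice 10.5, 19.3, 12.3, 12.4 and 23.0 CPM, which overlap widely. At 5 d the values were 21, 18.9, 9.90, 8.25 and 4.2 CPM against 5.56, 5.28, 7.95, 6.51 and 4.82 CPM. The range of the control mice at 5 d held all 5 Jag antibody mice within it. The log2 difference was -1.05 (SE 0.39, edgeR adjusted p = 0.0917), called by DESeq2 (-1.09, adjusted p = 0.0405) and with the adipocyte score as a covariate (-1.52, edgeR adjusted p = 0.0221). At 7 d control mice had 13.9, 29.4, 13.8, 13.9 and 26.8 CPM and Jag antibody mice 2.37, 13.1, 14.1, 7.38 and 11.8 CPM, a log2 difference of -1.0 (SE 0.39, edgeR adjusted p = 0.152). Jag antibody mouse 6, at 2.37 CPM, was the lowest of all 40. With the adipocyte score as a covariate this difference was called too (-1.20, edgeR adjusted p = 0.0319). With hormone, control mice had 9.40 to 19.3 CPM and Jag antibody mice 4.92 to 13.8 CPM, and the hormone differences were -0.59 in control mice and -0.13 in Jag antibody mice (edgeR adjusted p = 0.221 and 0.851).

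The balance between receptors therefore differed by group, on the scale of CPM per kb. Adrb3 exceeded Adrb1 by a median of 29.3-fold in control mice at 7 d, 15.5-fold in control mice with hormone and 4.25-fold in Jag antibody mice with hormone. Without hormone the medians also varied, from 7.34-fold in control mice at 15 h to 36.3-fold in Jag antibody mice at 7 d. The median ratio of Adrb3 to Adra1a was 2.82 in control mice at 15 h, 15.8 in control mice at 7 d and 5.00 with hormone. In Jag antibody mice it was 2.16 at 5 d, and at 7 d 9.59 without and 0.365 with hormone. Adra1a thus stood above Adrb3 per exonic length in that last group, where the ratio reached 1.02 in the highest mouse. By deposited FPKM, which used the whole span for Adra1a, the means of that group were 8.87 for Adrb3 and 1.17 for Adra1a. The order of these 2 receptors there depends on the length used.

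**Figure D2:**
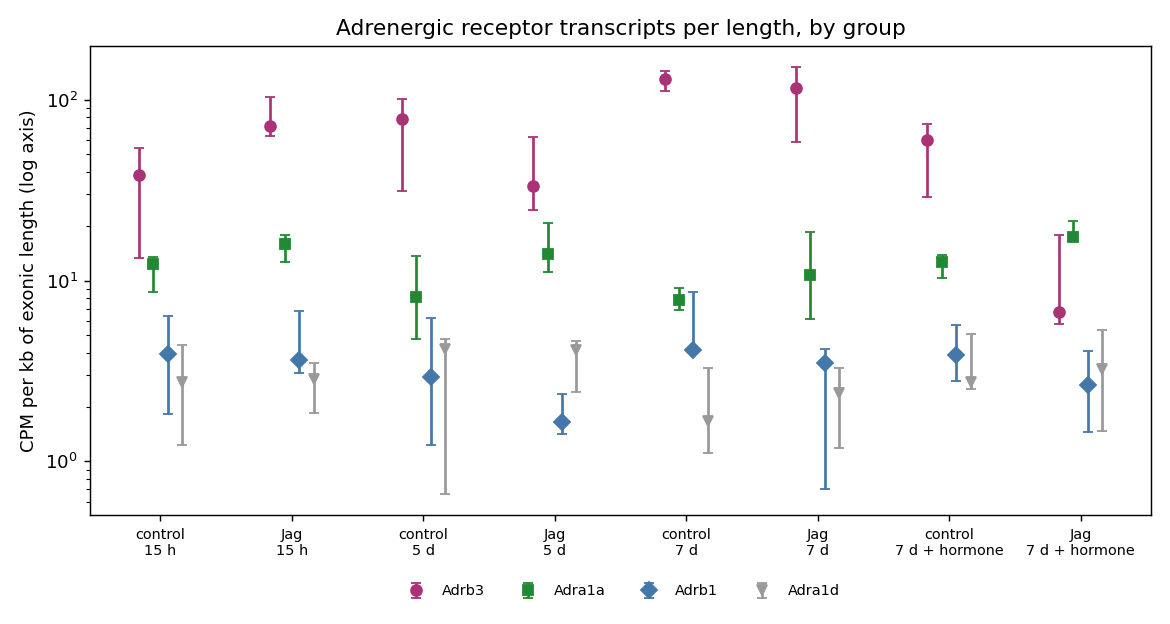
Receptor transcript level in CPM per kb of exonic length (vertical axis, logarithmic) in the 8 groups (horizontal axis); symbols are medians of 5 mice and bars run from the lowest to the highest mouse. Adrb3 is the highest of these 4 receptors by median in 7 groups, and in Jag antibody mice with hormone its median lies below that of Adra1a.

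Adra1a, which encodes the alpha1A receptor, went the opposite way from Adrb3 in the hormone comparisons. Control mice at 7 d had 79.4, 79.8, 68.1, 60.4 and 63.6 CPM without hormone and 110, 116, 90.5, 102 and 121 CPM with it. Every hormone-treated control mouse was above every untreated one, and 29.8% of all genes did not overlap between these groups. The log2 difference was 0.62 (SE 0.22, edgeR adjusted p = 0.0253), with 20.3% of all genes called higher. It was not called once per-library trends with gene length and GC content were removed (0.17, edgeR adjusted p = 0.482), nor without control mouse 4 at 7 d (adjusted p = 0.0548). The slope of log2 CPM on log2 exonic length was -0.36 to -0.05 in control mice at 7 d and 0.05 to 0.18 with hormone. In Jag antibody mice the values were 53.5, 105, 161, 94.0 and 89.0 CPM without and 147, 148, 168, 153 and 187 CPM with hormone, where mouse 8 without hormone lay among the treated mice. That log2 difference was 0.67 (SE 0.22, edgeR adjusted p = 0.0507), and 0.92 without mouse 8, where it was called (edgeR adjusted p = 0.00766).

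At 5 d Adra1a was higher in Jag antibody mice, the 1 call among the members for the antibodies without hormone. Control mice had 119, 71.3, 64.5, 114 and 41.4 CPM and Jag antibody mice 98.0, 122, 171, 119 and 182 CPM, groups that overlap. The log2 difference was 0.75 (SE 0.23, edgeR adjusted p = 0.0339), in a comparison with 8.02% of genes called and 2.09% called higher. With the muscle score as a covariate it was 0.49 and not called (edgeR adjusted p = 0.497), and with the adipocyte score 0.54 (edgeR adjusted p = 0.170). The muscle score did not overlap between these groups, and the fit with it called 89 of all genes, against 1369 without it. The Adra1a difference also lost its call without any 1 of control mice 2, 3 and 5 or Jag antibody mice 8, 9 and 10, at a lowest value of 0.56. At the other times the antibody differences were 0.34 at 15 h, 0.52 at 7 d and 0.57 at 7 d with hormone (edgeR adjusted p = 0.640, 0.189 and 0.255). Jag antibody mice did not overlap control mice in the last of these, a feature of 6.59% of all genes.

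By group mean, Adra1a ran from Jag with hormone (7.32 ± 0.15 log2 CPM, SD, n = 5), Jag at 5 d (7.07 ± 0.38) and Jag at 15 h (7.05 ± 0.20) through control with hormone (6.75 ± 0.17), control at 15 h (6.70 ± 0.26) and Jag at 7 d (6.57 ± 0.57) to control at 5 d (6.25 ± 0.63) and control at 7 d (6.13 ± 0.18). All neighbours overlapped, and the step from Jag at 15 h to control with hormone was the one larger than the SDs around it. The range of group means, from 6.13 to 7.32, was narrower than that of Adrb3.

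Adra2a, the alpha2A receptor, had 0 to 21 counts per library. It had 0 counts in 7 of 40 libraries, each of which allows a level of up to 0.133 to 0.380 CPM by the limit of 3 counts. These limits cover counting error only. Control mice at 5 d had 17, 15, 10, 9 and 21 counts, and Jag antibody mice at 5 d had 5, 8, 0, 0 and 4 counts. Scaled to depth, 3 of the 5 Jag antibody mice lay below all control mice at 5 d, and the other 2 overlapped them. The other 6 groups had 0 to 11 counts per mouse. As the gene fell under the filter on low counts, no test is given for it. Control mouse 5 at 5 d was highest both for Adra2a, at 1.76 CPM, and for the muscle score, at 13.71. Mouse 2, next for Adra2a at 0.678 CPM, had the lowest muscle score of that group (5.10). The part of muscle in these Adra2a values was not tested.

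Adcy3, a cyclase that makes cAMP, was called in no comparison, though its values at 15 h separated by antibody. Control mice then had 39.3, 17.6, 33.7, 44.5 and 40.3 CPM and Jag antibody mice 75.1, 45.1, 59.9, 98.2 and 76.3 CPM. The groups did not overlap, with 44.5 CPM the highest control and 45.1 CPM the lowest Jag antibody mouse. The same held for 2.48% of all genes. The Adcy3 difference was 1.02 log2 units (SE 0.41, edgeR adjusted p = 0.246). At 5 d the ranges were 18.5 to 76.5 CPM in control and 25.8 to 120 CPM in Jag antibody mice, and the difference was 0.57 (edgeR adjusted p = 0.418). At 7 d control mice had 38.4, 74.5, 128, 52.6 and 74.5 CPM and Jag antibody mice 53.9, 97.9, 343, 60.7 and 93.9 CPM. Jag antibody mouse 8, at 343 CPM, was the highest of all 40, and the difference was 0.82 (SE 0.41, edgeR adjusted p = 0.251). Without that mouse it was 0.06 (edgeR adjusted p = 0.944), so it rests on 1 library. With hormone the ranges were 64.2 to 117 CPM in control and 81.3 to 132 CPM in Jag antibody mice, a difference of -0.01 with a 95% interval from -0.81 to 0.78. The hormone difference in Jag antibody mice was -0.43 (edgeR adjusted p = 0.510) with Jag antibody mouse 8 at 7 d and 0.34 without it (edgeR adjusted p = 0.562). The gene sharing exonic bases with it, Cenpo, had 12.1% as many counts.

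Pde3b was higher in every Jag antibody mouse than in every control mouse at 7 d, without a call. Control mice had 227, 172, 207, 107 and 137 CPM and Jag antibody mice 236, 281, 493, 289 and 289 CPM. The separation was narrow, between control mouse 1 at 227 CPM and Jag antibody mouse 6 at 236 CPM. The log2 difference was 0.90 (SE 0.32, edgeR adjusted p = 0.114), and 3.31% of all genes did not overlap between these groups. At 15 h control mice had 336, 101, 172, 342 and 260 CPM and Jag antibody mice 335 to 424 CPM, a difference of 0.66 (edgeR adjusted p = 0.388). At 5 d the ranges were 112 to 453 and 245 to 638 CPM, and the difference was 0.50 (edgeR adjusted p = 0.352), or 0.18 without Jag antibody mouse 8 (edgeR adjusted p = 0.832). With hormone the control mice had 266, 354, 222, 209 and 259 CPM, 0.62 above those without (SE 0.32, edgeR adjusted p = 0.108). That difference was called in the fit of only the 2 groups compared (0.65, edgeR adjusted p = 0.0314) and with the adipocyte score as a covariate (1.60, edgeR adjusted p = 0.0171). In Jag antibody mice the hormone difference was -0.06 (edgeR adjusted p = 0.928), with 228 to 375 CPM on hormone.

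Pde4d was called in no comparison. Its control mice had 91.6, 39.6, 44.9, 104 and 87.7 CPM at 15 h, where Jag antibody mice had 119, 123, 77.1, 133 and 132 CPM. Jag antibody mouse 8 lay among the controls there, and the other 4 were above them all, for a log2 difference of 0.67 (SE 0.29, edgeR adjusted p = 0.291). At 5 d the ranges were 58.1 to 176 CPM in control and 85.5 to 212 CPM in Jag antibody mice (0.52, edgeR adjusted p = 0.277), and at 7 d 74.3 to 117 and 49.2 to 136 CPM (0.08, edgeR adjusted p = 0.892). With hormone, control mice had 75.5 to 93.8 CPM and Jag antibody mice 56.1 to 103 CPM. The hormone differences were -0.16 in control mice and -0.28 in Jag antibody mice (edgeR adjusted p = 0.679 and 0.547). In control mice the first became -0.70 and was called once length and GC trends were removed (edgeR adjusted p = 0.0219).

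Prkar2b, the most abundant of the 8 genes per exonic length, was called in no comparison. At 15 h it stood at 1530, 425, 893, 1682 and 1159 CPM in control mice and 1448, 1622, 1430, 1642 and 1326 CPM in Jag antibody mice. Control mouse 2 at 15 h, at 425 CPM, was the lowest of all 40. At 5 d control mice had 1564, 1179, 732, 1278 and 513 CPM and Jag antibody mice 1235, 1075, 2225, 1334 and 1546 CPM, and the groups overlapped. At 7 d control mice had 944 to 1542 CPM and Jag antibody mice 614 to 1559 CPM. With hormone control mice had 605 to 1119 CPM and Jag antibody mice 739 to 1145 CPM. The 6 log2 differences ran from -0.47 (SE 0.28, hormone in control mice, edgeR adjusted p = 0.174) to 0.49 (SE 0.28, antibody at 5 d, edgeR adjusted p = 0.299). At 7 d without hormone the antibody difference was 0.05, with a 95% interval from -0.50 to 0.60.

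**Figure D3:**
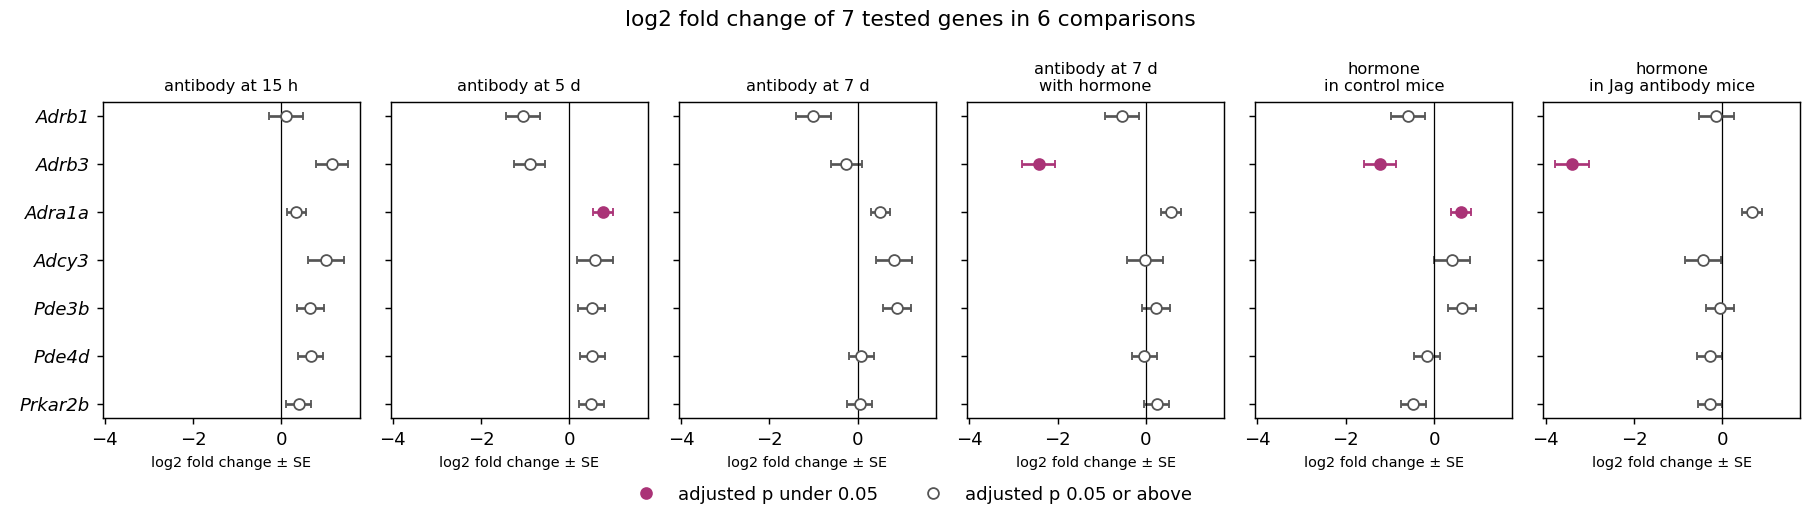
log2 fold change (horizontal axis) with its standard error for 7 tested genes (rows) in 6 comparisons (panels); filled symbols have an edgeR adjusted p under 0.05. Adrb3 is filled in the 3 panels at -2.43, -1.22 and -3.40, and Adra1a in the panels at 0.75 and 0.62.

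In total, of 7 tested genes, the antibodies changed 0 at 15 h and 1 at 5 d, where 1.14% and 8.02% of all genes were called. They changed 0 at 7 d and 1 at 7 d with hormone, where 2.5% and 1.14% of all genes were called. Hormone changed 2 in control mice and 1 in Jag antibody mice, where 43.2% and 9.5% of all genes were called. Before adjustment, 4 of the 7 had an edgeR p under 0.05 at 15 h (Adrb3, Adcy3, Pde3b and Pde4d), where 2052 of all 17079 genes did. At 5 d 3 did (Adrb1, Adrb3 and Adra1a), beside 3907 of all genes, and at 7 d 3 did (Adrb1, Adra1a and Pde3b), beside 3504. DESeq2 called 1 at 15 h, Adrb3, and 0 at 7 d. These comparisons share groups, so their counts are not independent of each other. For the 4 tests of whether antibody differences differ by time or hormone, 0 of 7 were called by edgeR, with 0.0995% of all genes called for 5 d minus 15 h, 1.31% for 7 d minus 15 h, 1.29% for 7 d minus 5 d and 0.00586% for hormone. Adrb3 had an unadjusted p under 0.05 in the first, second and last of these and Adrb1 in the first, and DESeq2 called Adrb3 in the first and last.

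The wider route was described through 9 lists with 91 genes, 88 of them tested, which hold the 8 members. Antibody comparisons called few of them. At 15 h 1 of 88 was called, or 1.14% as over all genes. At 5 d, 2 were higher and 5 lower. Besides Adra1a, the coactivator gene of mitochondrial biogenesis Ppargc1a rose by 1.11 (SE 0.36, edgeR adjusted p = 0.0489). That call was kept by DESeq2 and lost in the other 7 alternatives, at 0.71 with the adipocyte score (edgeR adjusted p = 0.248), and it was kept in 4 of 10 fits that left out a mouse. Among the lower genes, Pkia, which encodes an inhibitor of PKA, fell by 4.87 (SE 1.40, edgeR adjusted p = 0.0299) and Adcy10, the soluble cyclase, fell by 3.54 (SE 0.76, edgeR adjusted p = 0.00614). Fos, an immediate early gene, fell by 2.72 (SE 0.85, edgeR adjusted p = 0.0431). Leaving out a mouse, Fos kept its call in 2 of 10 fits, Pkia in 4 and Adcy10 in 10. With the muscle score as a covariate 1 of the 88 and 89 of all 17079 genes were called at 5 d, and Pkia stood at -0.95 (edgeR adjusted p = 0.750). The share of the lists called at 5 d, 7.95%, was close to the 8.02% of all genes.

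At 7 d without hormone, Akap8, which encodes an anchoring protein of PKA, rose by 0.62 (SE 0.16, edgeR adjusted p = 0.0352). Akap5, a further anchoring protein gene, fell by 1.96 (SE 0.51, edgeR adjusted p = 0.0334). Those were the calls of 88 there, 2.27% against 2.5% of all genes. Both kept their call in 6 of 10 fits that left out a mouse, and lost it with no filter and in the fit of only the groups compared. With hormone the 1 gene of 88 called between antibodies was Adrb3, or 1.14% as over all genes.

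Hormone in control mice changed 33 of 88, 22 higher and 11 lower, or 37.5% against 43.2% of all genes. Over all genes 20.3% were called higher and 22.9% lower. With length and GC trends removed the split was 19 higher and 16 lower. All 3 called cyclase genes of 9 rose, among them Adcy7 by 2.56 (SE 0.45, edgeR adjusted p = 6.49e-05) and Adcy9 by 1.93 (SE 0.44, edgeR adjusted p = 0.000688). Of 9 genes of PKA subunits and inhibitors 4 rose and none was called lower. Of 8 genes that desensitise receptors 3 rose, including Arrb1, which encodes beta-arrestin 1, by 1.46 (SE 0.22, edgeR adjusted p = 1e-05). The shares called were 33.3% for the cyclase genes, 44.4% for the PKA genes and 37.5% for the desensitising genes. These are near or below the 43.2% of all genes. Of 12 genes known to be induced by cAMP, 6 fell and none rose, with a median log2 difference of -1.38 against 0.04 for all genes. The largest falls were Fosb (-4.87, SE 1.08, edgeR adjusted p = 0.000653), Fos (-2.82, SE 0.81, edgeR adjusted p = 0.00575) and Nr4a1 (-2.63, SE 0.70, edgeR adjusted p = 0.00294), immediate early transcription factors. Fos lost its call without control mouse 1 at 7 d (-0.95, adjusted p = 0.252), and also in the fit of only the groups compared, with the adipocyte score, with limma and with the replicate block (edgeR or limma adjusted p from 0.0555 to 0.120). Nr4a1 lost its call with the adipocyte score (edgeR adjusted p = 0.512). With the adipocyte score as a covariate 14 of the 88 and 1547 of all 17079 genes were called. In that fit 1 of the 12 cAMP-induced genes was higher and 2 lower. Adcy7 was then at 0.82 (edgeR adjusted p = 0.226), beside macrophage and monocyte markers of which 8 of 8 rose, with summed levels of 125.929 to 299.101 CPM without and 646.819 to 1271.44 CPM with hormone. In Jag antibody mice 3 of those 8 rose. Their part in the result was not tested.

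Hormone in Jag antibody mice changed 12 of 88, 6 higher and 6 lower, or 13.6% against 9.5% of all genes. Adcy7 (1.39, SE 0.43, edgeR adjusted p = 0.0366) and Adcy9 (1.33, SE 0.42, edgeR adjusted p = 0.042) rose. Leaving out a mouse, Adcy9 kept its call in 1 of 10 fits and Adcy7 in 4, and with the adipocyte score Adcy7 was at 0.34 (edgeR adjusted p = 0.634). Besides Adrb3, the lower genes included Fosb (-3.34, SE 1.01, edgeR adjusted p = 0.0329) and Gadd45g (-1.85, SE 0.45, edgeR adjusted p = 0.00813), a stress-inducible gene. Fosb kept its call in 4 of 10 fits that left out a mouse and Gadd45g in 10, and both lost it with the adipocyte score (edgeR adjusted p = 0.0819 and 0.102). Of the 12 cAMP-induced genes these 2 fell and none rose. The differences between the hormone comparisons were not called for any member, and no such test is given for the lists.

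**Figure D4:**
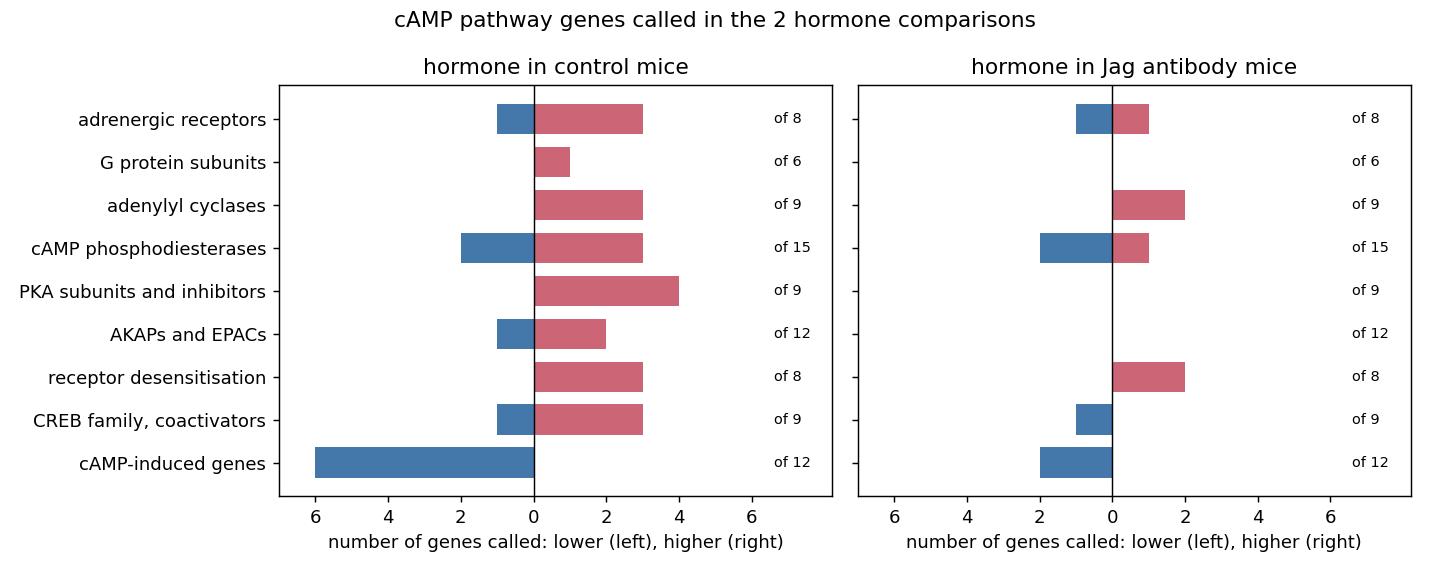
Number of genes called lower (left of 0) and higher (right of 0) on the horizontal axis for 9 lists of the cAMP route (rows), with the number tested at the right, for hormone in control mice and in Jag antibody mice. The cAMP-induced genes have bars to the left alone, 6 and 2 of 12.

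Fat cell markers moved with hormone beside these results. In control mice 3 of 7 adipocyte genes fell and none rose, a share close to the 43.2% of all genes called, with Adipoq lower by 1.76 and Fabp4 by 1.77 on the log2 scale (edgeR adjusted p = 6.05e-06 and 1.47e-05). Plin1, the lipid droplet protein that PKA acts on, was at -0.14 (edgeR adjusted p = 0.631). In Jag antibody mice 2 of 7 fell, in a comparison where 9.5% of all genes were called. Adipoq was at -1.24 there (edgeR adjusted p = 0.00137) and Plin1 at -0.24 (edgeR adjusted p = 0.503). The summed level of the 7 genes was 25619.5 to 47605.7 CPM in control mice without hormone and 11893.5 to 14977.2 CPM with it. In Jag antibody mice it was 21230.9 to 36980.8 and 15302 to 21352.7 CPM. None of the 7 was at 0 in any group. Of 8 brown adipocyte markers 5 fell and 1 rose with hormone in control mice, with summed levels of 13620.4 to 43876.8 CPM without and 4572.73 to 8903.74 CPM with it, and 1 fell in Jag antibody mice. All 5 proliferation genes rose with hormone under either antibody, as did 4 of 6 fibroblast and progenitor markers. The part of these cell types in the hormone results was not tested. Sympathetic nerve genes could not be used as a check: their summed level was 0.379892 to 9.94104 CPM, and Dbh had 0 counts throughout 6 of the 8 groups.

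**Figure D5:**
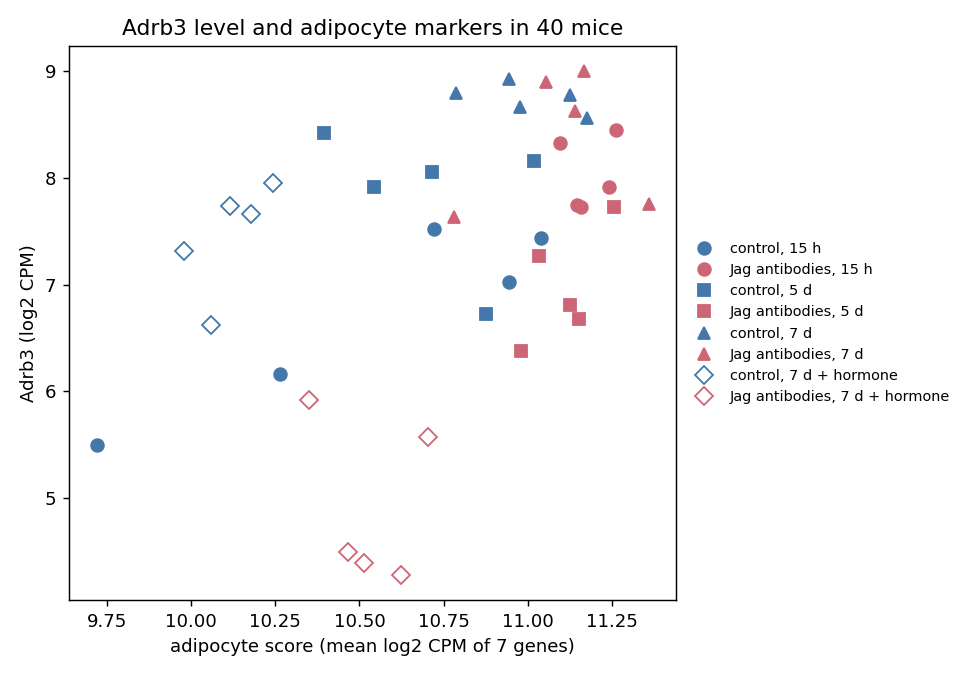
Adrb3 in log2 CPM (vertical axis) against the adipocyte score, the mean log2 CPM of 7 adipocyte genes (horizontal axis); each point is 1 of 40 mice, coloured by antibody and shaped by time, with open symbols for hormone. The 5 Jag antibody mice with hormone have scores of 10.35 to 10.70 and Adrb3 levels of 19.3 to 60.3 CPM, below the 5 control mice with hormone, whose scores of 9.98 to 10.24 are lower.

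Among the 7 tested genes, log2 CPM over the 40 mice was most alike for Adra1a and Pde3b (Pearson r = 0.76) and for Prkar2b with Pde3b and with Pde4d (r = 0.73 for both). Adrb3 and Adra1a were the most opposed pair (r = -0.51). These values are descriptions over mice that share groups, tissue composition and scaling. Of 12139 genes compared over the 40 libraries, those most like Adrb3 were Hebp2 (r = 0.85), Mfsd4b3 (r = 0.84) and Hist1h1c (r = 0.82). Adra1a was most like Trim2 (r = 0.90), Prex2 (r = 0.86) and Acer2 (r = 0.86), and Adrb1 was most like Ick (r = 0.75), Dusp6 (r = 0.73) and Slc25a48 (r = 0.70). The nearest to Adcy3 were Tada2b (r = 0.85), Gnao1 (r = 0.83) and Cluh (r = 0.83). For Pde3b they were Cmtm4 (r = 0.92), Aldh6a1 (r = 0.89) and Gm18957 (r = 0.88). For Pde4d they were BC067074 (r = 0.76), Acsl1 (r = 0.75) and Stt3b (r = 0.73), and for Prkar2b Ccni (r = 0.87), Nadk2 (r = 0.86) and Ttc30b (r = 0.86).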

How the data were processed

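RNA-seq counts per gene and FPKM values of brown adipose tissue from 40 mice were used. The authors deposited raw counts and FPKM; GSNAP and limma are named, without version or role, per the submitters' processing notes. The aligner settings, genome build, counting program and strand are not given in the sources used here. The lengths implied by the deposited FPKM followed the genomic span for 84.8% of 14275 genes and the exonic length for 0.546%, so levels per length were computed from counts and exonic lengths of GENCODE M21.

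Of 52636 rows, 52403 identifiers matched a symbol. Counts were fitted with edgeR 4.0.16 in R 4.3.3 (TMM scaling, filterByExpr, robust quasi-likelihood test) over all 8 groups of 5 mice. The fit tested 17079 genes. A call is a Benjamini-Hochberg adjusted p under 0.05 over all genes tested, for 6 comparisons of groups and 4 differences between them. log2 CPM used a prior count of 2. The alternatives were DESeq2 1.42.0, RLE scaling, no filter, only the groups compared, muscle and adipocyte scores as covariates, offsets for length and GC, a replicate block, each mouse left out, and limma 3.58.1 on log2(FPKM + 1). The code was tested on simulated data.

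Besides the 8 genes, pathway genes were named by size: up to 3 called genes in each direction per comparison, with a mean of at least 1 log2 CPM. The genes and lists were chosen with earlier results of these data known. Replicate pairs differed by more than sampling noise in all 80 pairs. Depth was 12217623 to 36511893 counts per library. A result that the naming rule covers is not reported here.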

Additional observations from a re-analysis of the deposited data

Results flagged for a closer look

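In 56 sets of 5 mice (7 genes in 8 groups), 3 held an extreme mouse set apart from the next value by over 0.71 of the whole range. Chance flags about 1 in 20, or 2.8 of them. Adra1a in control mouse 2 at 15 h was the lowest of its group at 6.25 log2 CPM. Pde3b in Jag antibody mouse 8 at 7 d was the highest of its group at 8.94 log2 CPM. Pde4d in Jag antibody mouse 8 at 15 h was the lowest of its group at 6.27 log2 CPM.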

How the results depend on the processing

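Of 644 values for single genes of the 8, recomputed under alternatives other than leaving out a mouse, 618 kept their side of the threshold, 7 lost a call and 19 gained one, and 0 called values reversed. The counts of these genes called moved as follows, and the cause was not tested. For the antibodies at 15 h DESeq2 called 1. At 5 d DESeq2 and the adipocyte score called 2, and the fits without a filter, of only the groups compared and with the muscle score called 0. At 7 d the adipocyte score called 1, and at 7 d with hormone the fit of only the groups compared called 2. For hormone in control mice the alternatives called 2 to 3, not always the same genes. Adrb3 lost its call with the adipocyte score, where Pde3b gained one. Adra1a lost its call with length and GC offsets, where Pde4d gained one. For hormone in Jag antibody mice 2 were called (Adrb3 and Adra1a) by DESeq2, RLE scaling, either score, limma on FPKM and the replicate block. For 5 d minus 15 h DESeq2 and the adipocyte score called 1, and for antibody by hormone DESeq2 called 1. Leaving out each mouse gave 0 to 1 at 15 h, 0 to 2 at 5 d, 1 to 2 for hormone in control and in Jag antibody mice, and 0 to 1 for 5 d minus 15 h.

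Of the 88 pathway genes, the antibodies at 15 h called 5 by DESeq2 and 0 with the adipocyte score, limma, no filter or only the groups compared, and 0 to 6 without each mouse. At 5 d the count was 4 with the adipocyte score or only the groups compared, 11 with length and GC offsets, 1 with limma or the muscle score, 2 with no filter, and 1 to 17 without each mouse. At 7 d it was 10 by DESeq2, 9 with the adipocyte score, 5 with length and GC offsets, 4 with limma, 0 with no filter or only the groups compared, and 0 to 6 without each mouse. At 7 d with hormone it was 3 by DESeq2 or with length and GC offsets, 2 with the adipocyte score, 4 with limma, 5 with only the groups compared, and 1 to 2 without each mouse. For hormone it was 14 in control mice with the adipocyte score, with 28 to 37 without each mouse, and 7 to 11 in Jag antibody mice without each mouse.

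The labels do not give mouse numbers as pairs between the hormone groups. With the replicate block 26 pathway genes were higher and 8 lower in control mice, and 7 and 5 in Jag antibody mice. Same-numbered mice correlated best with their own number in 2 of 5 control and 1 of 5 Jag antibody pairs. Their r ran from -0.32 to 0.64 and from -0.29 to 0.67. With 5 pairs this cannot settle whether mice of 1 number shared anything. Depth limits Adra2a, which was not tested.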
